A study of Mus musculus with 18 samples.

Results

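A set of 9 genes of amino acid catabolism and the methionine cycle was followed in mouse liver after IL-1β: Tat, Tdo2, Hpd, Hal, Sds, Mat1a, Gnmt, Bhmt and Cbs. They were chosen by gene symbol, and all 9 were listed in each of the 3 gene count tables, among 21018 genes listed in at least 1 table. The livers came from 6 male C57/B6J mice that were 12 weeks old, of which 3 received 20 μg/Kg of IL-1β (mice ILB_9579, ILB_9582 and ILB_9583) and 3 received saline (mice UNT_9574, UNT_9575 and UNT_9576), with collection 4 hours later. RNA of every mouse was prepared with 3 library kits, giving 18 RNA-Seq libraries. These kits were Pico, a stranded total RNA kit with ribosomal depletion (1.7 to 2.6 ng of RNA, 150 bp reads), V4, an unstranded poly(A) kit (0.8 to 1.3 ng, 150 bp), and TruSeq, a stranded poly(A) kit (200 ng, 125 bp). The study's methods credit the TruSeq experiment to an earlier publication, and its libraries were read on another sequencer model than those of Pico and V4. Kit, run, sequencer, read length and RNA input therefore cannot be told apart where TruSeq is compared. The same 6 mice stand behind all 3 comparisons. A library held 12348864 to 12858237 gene counts in TruSeq, 4024632 to 4134070 in Pico and 12013453 to 12352473 in V4.

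The liver is the main site of amino acid breakdown. Tyrosine is handled by tyrosine aminotransferase (Tat) and then hydroxyphenylpyruvate dioxygenase (Hpd), tryptophan by tryptophan dioxygenase (Tdo2), which opens the kynurenine pathway, histidine by histidine ammonia lyase (Hal), and serine by serine dehydratase (Sds), which yields pyruvate. In the methionine cycle, methionine adenosyltransferase (Mat1a, the liver form) makes S-adenosylmethionine, glycine N-methyltransferase (Gnmt) spends it on glycine, betaine-homocysteine methyltransferase (Bhmt) returns homocysteine to methionine, and cystathionine beta-synthase (Cbs) commits homocysteine to cysteine synthesis. Tat and Tdo2 are long known as hepatocyte genes induced by glucocorticoids, and the cytokine IL-1β drives the acute-phase response of hepatocytes.

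On the mm9 genome, Tat (ENSMUSG00000001670) lies on the plus strand at chr8:112514337-112523703, Tdo2 on the minus strand at chr3:81761012-81780124, Hpd on the minus strand at chr5:123621816-123632734, Hal on the plus strand at chr10:92951513-92982049 and Sds (ENSMUSG00000029597) on the plus strand at chr5:120926540-120933941. Of the methionine cycle genes, Mat1a is on the plus strand at chr14:41918670-41937701, Gnmt on the minus strand at chr17:46862613-46866117, Bhmt on the minus strand at chr13:94386846-94407916 and Cbs on the minus strand at chr17:31749568-31774144. All 9 are protein coding, with 1206 (Gnmt) to 5549 (Hal) exonic bases, as the annotation gives them. Exons of Sds share 360 bases with Plbd2 and 141 with Gm15690 on the opposite strand, and exons of Bhmt share 187 with Gm15622. V4 reads carry no strand, so reads from these stretches cannot be assigned there, although the highest V4 library count was 1492 for Plbd2, 25 for Gm15690 and 3 for Gm15622.

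Promoter windows of RefSeq (GRCm38.p6, 250 bases before to 50 after the start) were held for 7 of the 9 genes. The 150 bases before the start are shown for the 3 of these that passed the test in every kit, 1 of which rose (Tat) and 2 of which fell (Hal and Hpd), so that genes with opposite responses can be compared. They span chr8:109990286-109990435 (plus strand) for Tat, chr10:93488618-93488767 (plus) for Hal and chr5:123182724-123182873 (minus) for Hpd. Capitals mark matches, on either strand, to TATAA (the TATA box), to CCAAT (the box of that name), to TTGCNNAA (the core bound by C/EBP factors) or to a part of the NF-kappaB motif (GGG and CC with 5 bases between them). Matches that overlap run together.
Tat: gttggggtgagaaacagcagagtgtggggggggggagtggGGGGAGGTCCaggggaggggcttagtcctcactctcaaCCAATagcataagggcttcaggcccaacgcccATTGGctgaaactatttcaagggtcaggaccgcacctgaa
Hal: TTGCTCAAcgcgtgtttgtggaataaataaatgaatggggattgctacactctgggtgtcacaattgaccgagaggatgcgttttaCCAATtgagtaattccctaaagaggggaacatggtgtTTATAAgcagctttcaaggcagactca
Hpd: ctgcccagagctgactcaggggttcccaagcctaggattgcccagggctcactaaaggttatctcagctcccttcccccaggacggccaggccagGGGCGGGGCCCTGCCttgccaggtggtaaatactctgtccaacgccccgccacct
In the whole windows CCAAT was held by 6 of the 7 genes, all but Hpd, against 37.4% of 32817 mouse windows, and TATAA by 4 (Gnmt, Hal, Tat and Tdo2) against 24.9%. The TATAA match began at -27 from the start in Hal and -31 in Gnmt, at -229 in Tdo2 and at 40, after the start, in Tat. The NF-kappaB part occurred in Gnmt, Hpd and Tat (50.8% of windows) and TTGCNNAA in Hal (10.8%). No window of the 7 held AGAACA, a part of the glucocorticoid receptor motif (19% of windows), or CAAAGTCC, the core bound by HNF4 (1.42%). These are letter matches and say nothing of binding.

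After IL-1β, Tat and Sds were higher and Hal and Hpd lower in each kit, Gnmt and Bhmt were lower in part of the kits, and Tdo2, Mat1a and Cbs passed the test in none. The test was limma-voom on the counts of each kit, with a gene called at an adjusted p of at most 0.05 over all genes of the kit. In Pico 2 of the 9 genes were called higher and 4 lower, against 6.78% and 10.8% of the 18108 genes tested. In V4 it was 2 and 3, against 3.6% and 7.41% of 18051, and in TruSeq 2 and 3, against 12.3% and 21.8% of 19424. All 9 exceed a mean of 100 counts in every kit. Of all genes above that mean, the TruSeq fit called 20.8% higher and 31.4% lower, the Pico fit 15.3% and 23.1% and the V4 fit 6.97% and 13.3%. The 2 groups of mice did not overlap for 2 of the 9 genes upwards in each kit and for 4 (Pico) or 3 (V4, TruSeq) downwards. Over all genes the share without overlap was 17.1% upwards and 27.9% downwards in TruSeq, 12.6% and 18.6% in Pico and 9.09% and 18.6% in V4. All genes together had a median log2 fold change of -0.17 in TruSeq, -0.12 in Pico and -0.22 in V4. Scaling with TMM factors instead of library totals moved that median up by 0.16, 0.13 and 0.17. Higher genes were then 50.9% of the calls in TruSeq instead of 36.0%, 52.9% instead of 38.6% in Pico and 49.7% instead of 32.7% in V4. These are bulk livers, in which fewer cells of a type and less RNA per cell cannot be told apart.

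**Figure D1:**
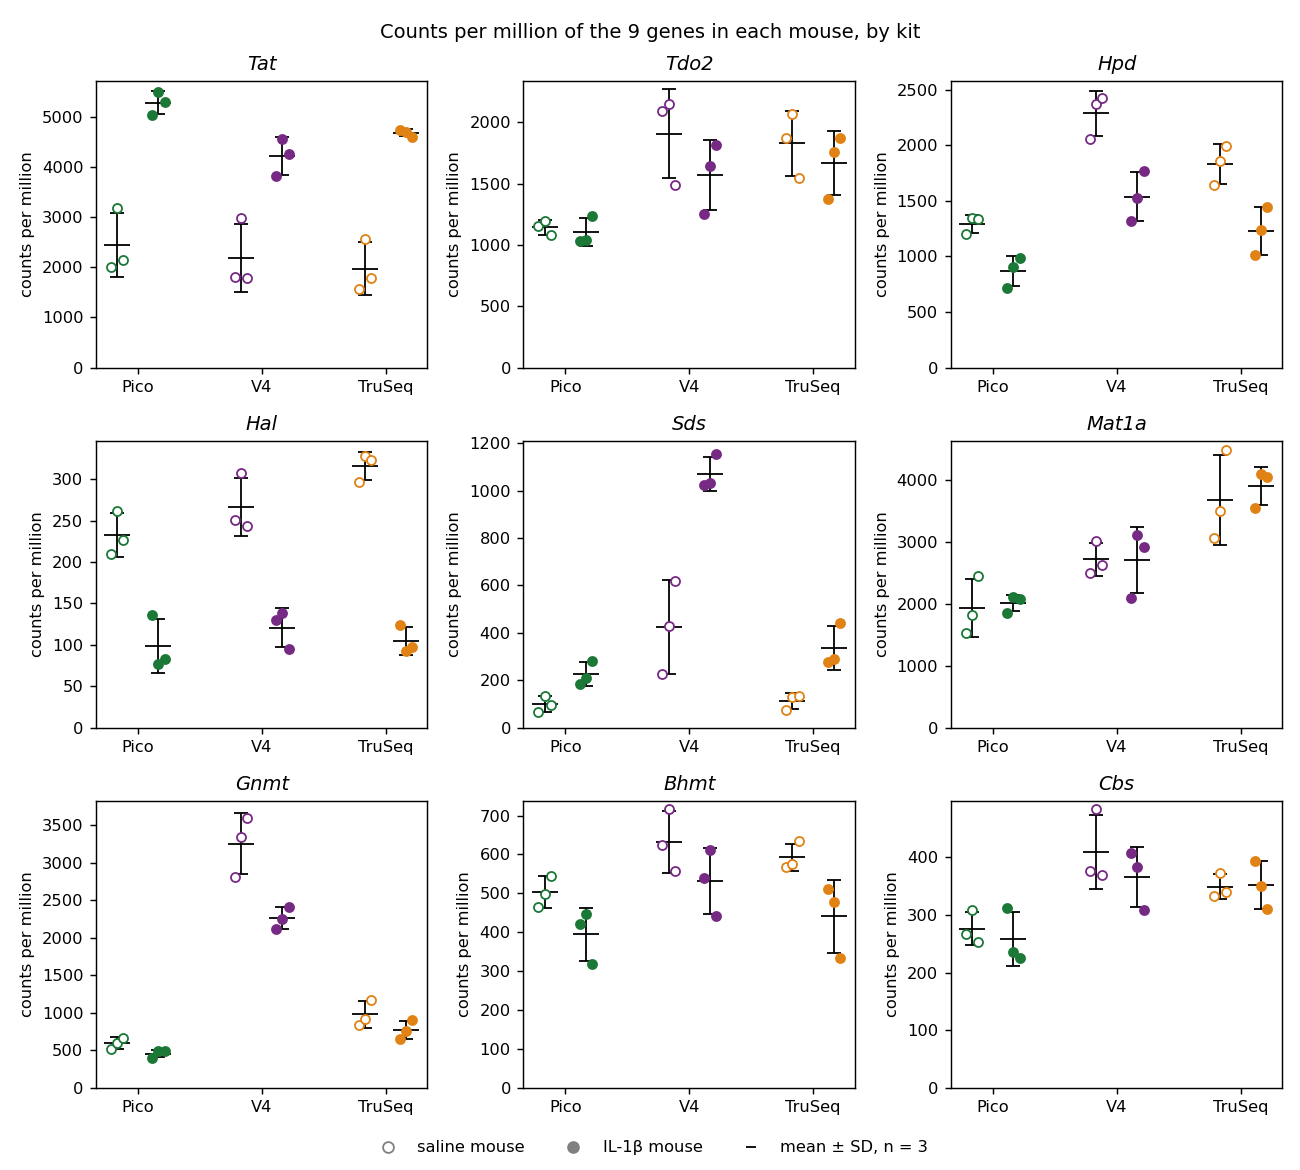
CPM (y axis, from 0) of the 9 genes in each of the 6 mice, by kit (x axis), with open points for saline, filled points for IL-1β and black bars for the mean and SD of 3 mice. Tat and Sds sit higher and Hal and Hpd lower after IL-1β in all 3 kits, with no overlap between the groups, while the groups of Tdo2, Mat1a and Cbs overlap in every kit.

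Tat rose in every kit. In TruSeq, Tat stood at 1573, 2567 and 1784 CPM (counts per 1000000 counts of the library) in saline mice UNT_9574, UNT_9575 and UNT_9576 and at 4741, 4699 and 4604 CPM in IL-1β mice ILB_9579, ILB_9582 and ILB_9583. The Pico libraries of the same mice held 2009.8, 3186 and 2149.9 CPM in saline and 5042, 5501 and 5301 CPM after IL-1β, and the V4 libraries 1803, 2977 and 1792 CPM and 3823, 4567 and 4255 CPM. Saline mouse UNT_9575 was the highest of its group in all 3 kits, yet below every IL-1β mouse. The log2 fold change of Tat was 1.28 (SE 0.15, adjusted p = 0.000227) in TruSeq, 1.14 (SE 0.11, adjusted p = 1.82e-06) in Pico and 0.98 (SE 0.17, adjusted p = 0.00507) in V4, a fold of 2.42, 2.2 and 1.98. In TruSeq the IL-1β mice were also closer to each other than the saline mice, with a coefficient of variation of 1.5% against 26.5%, and the same order held in Pico (4.36% against 26.2%) and V4 (8.87% against 31.1%), each over 3 mice and not tested.

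Hpd, the enzyme that acts after Tat, went the other way. Its TruSeq level was 1644, 1861 and 1997 CPM in the saline mice and 1010.4, 1236 and 1444 CPM in the IL-1β mice. Pico gave 1203, 1343 and 1335 CPM in saline against 719.7, 908 and 982 CPM, and V4 2055, 2376 and 2431 CPM against 1322, 1526 and 1765 CPM. The groups did not overlap in any kit, and IL-1β mouse ILB_9579 was the lowest in each. The fall was of nearly the same size on the log2 scale: -0.59 (SE 0.13, adjusted p = 0.00732) in TruSeq, -0.58 (SE 0.097, adjusted p = 0.000443) in Pico and -0.58 (SE 0.13, adjusted p = 0.0164) in V4, or 0.666, 0.668 and 0.669 times the saline level. With TMM factors Hpd was at -0.41 in V4 and no longer called (adjusted p = 0.0824). Without mouse ILB_9579, ILB_9582 or UNT_9575 it was not called in V4 (adjusted p of 0.0772 to 0.0842), and without saline mouse UNT_9576 it was not called in TruSeq (adjusted p = 0.0509).

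Tdo2 passed the test in no kit. Its saline and IL-1β levels were 1543 to 2072 and 1374 to 1875 CPM in TruSeq, 1488 to 2147 and 1255 to 1811 CPM in V4 and 1079 to 1199 and 1036 to 1234 CPM in Pico, overlapping in each. The log2 fold change was -0.13 (95% interval -0.45 to 0.18, adjusted p = 0.527) in TruSeq, -0.055 (95% interval -0.23 to 0.12, adjusted p = 0.692) in Pico and -0.28 (95% interval -0.66 to 0.099, adjusted p = 0.367) in V4, so that a rise of the size of the Tat response lies outside all 3 intervals. Mice kept their order across the kits: ILB_9579 was the lowest and ILB_9583 the highest of the IL-1β mice, and UNT_9576 the lowest and UNT_9575 the highest of the saline mice, in all 3.

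Sds had the highest fold change of the 9 genes in every kit, although in Pico it was below Tat without saline mouse UNT_9574 (0.98 against 1.01 on the log2 scale) or IL-1β mouse ILB_9583 (1.06 against 1.14). The TruSeq libraries held 75.1, 128 and 134 CPM in saline and 278, 290.0 and 443 CPM after IL-1β. In Pico the values were 67.4, 135 and 94.6 CPM and 185, 212 and 282 CPM, and in V4 227, 428 and 619 CPM and 1023, 1034 and 1154 CPM. Every IL-1β mouse was above every saline mouse, although the saline mice spread widely, with the highest at 1.79 times the lowest in TruSeq, 2.01 times in Pico and 2.73 times in V4. On the log2 scale Sds rose by 1.60 (SE 0.24, adjusted p = 0.000715) in TruSeq, 1.23 (SE 0.20, adjusted p = 0.000371) in Pico and 1.45 (SE 0.27, adjusted p = 0.00644) in V4, a fold of 3.02, 2.34 and 2.73. Mouse UNT_9574 was the lowest saline mouse and mouse ILB_9583 the highest IL-1β mouse for Sds in all 3 kits.

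Hal had the largest fall. It was at 296, 328 and 323 CPM in the saline mice of TruSeq and at 125, 92.9 and 97.9 CPM in the IL-1β mice. Pico showed 209, 262 and 227 CPM in saline and 136, 76.8 and 82.4 CPM after IL-1β, and V4 250.3, 307 and 243 CPM and 129, 138 and 94.7 CPM. No IL-1β mouse reached the lowest saline mouse. Hal fell on the log2 scale, with -1.60 (SE 0.12, adjusted p = 1.64e-05) in TruSeq, -1.28 (SE 0.17, adjusted p = 5.32e-05) in Pico and -1.15 (SE 0.18, adjusted p = 0.00264) in V4, which left 0.331, 0.411 and 0.45 times the saline level. The responses of Tat, Sds and Hal kept their calls with TMM factors, by edgeR and DESeq2, and without any 1 mouse.

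**Figure D2:**
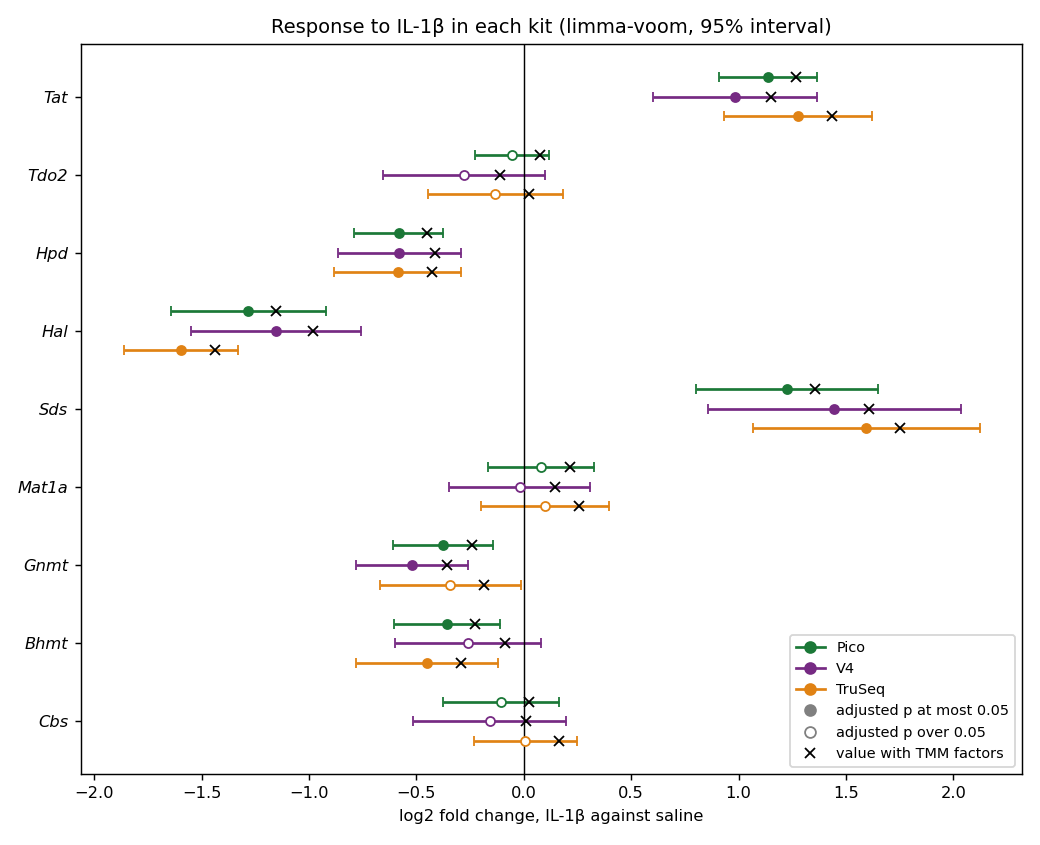
Log2 fold change of IL-1β against saline (x axis) for each gene (y axis) with its 95% interval in Pico (green), V4 (purple) and TruSeq (orange). Filled points have an adjusted p of at most 0.05, and crosses give the value with TMM factors, which lies above the value with library totals for every gene and kit.

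In the methionine cycle the changes were smaller. Gnmt was lower after IL-1β, at 514, 596 and 669 CPM in the saline and 396, 491 and 484 CPM in the IL-1β libraries of Pico. V4 held far more Gnmt, 2814, 3349 and 3601 CPM in saline and 2119.8, 2246 and 2412 CPM after IL-1β. The groups were apart in Pico and V4 and overlapped in TruSeq, where saline mice stood at 838, 921 and 1173 CPM and IL-1β mice at 655, 756 and 899 CPM. The log2 fold change of Gnmt was -0.38 (SE 0.11, adjusted p = 0.0256) in Pico and -0.52 (SE 0.12, adjusted p = 0.0174) in V4, and -0.34 (SE 0.15, adjusted p = 0.107) in TruSeq, where it was not called and ranged from -0.46 to -0.20 without 1 mouse. Saline mouse UNT_9574 was the lowest and UNT_9576 the highest of their group in all 3 kits.

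Bhmt, which works on the same cycle from the side of homocysteine, was called lower in Pico and TruSeq. It stood at 569, 575 and 633 CPM in saline and 510.0, 477 and 334 CPM after IL-1β in TruSeq, and at 464, 498 and 545 and 422, 446 and 318 CPM in Pico. V4 gave 624, 717 and 558 CPM and 540.4, 611 and 441 CPM. The groups were apart in TruSeq and Pico and overlapped in V4, and IL-1β mouse ILB_9583 was the lowest in each kit. Bhmt fell on the log2 scale in Pico, with -0.36 (SE 0.12, adjusted p = 0.0437), and in TruSeq, with -0.45 (SE 0.15, adjusted p = 0.0402), and was not called in V4, with -0.26 (SE 0.15, adjusted p = 0.348) and a range of -0.37 to -0.13 without 1 mouse. The calls of Gnmt and Bhmt were all lost with TMM factors, when Gnmt was at -0.24 in Pico (adjusted p = 0.159) and -0.36 in V4 (adjusted p = 0.0841), and Bhmt at -0.23 in Pico (adjusted p = 0.213) and -0.29 in TruSeq (adjusted p = 0.154). The call of Gnmt was also lost without mouse ILB_9579, ILB_9582, ILB_9583, UNT_9575 or UNT_9576 in Pico and without ILB_9579, ILB_9582, ILB_9583 or UNT_9575 in V4, and that of Bhmt without any 1 mouse in Pico and without any but ILB_9579 in TruSeq. Without mouse ILB_9583 the value of Bhmt moved to -0.21 in Pico and -0.26 in TruSeq.

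Mat1a and Cbs, at the entry and the exit of the cycle, were called in no kit. Mat1a ranged over 3058 to 4469 CPM in saline and 3546 to 4093 CPM after IL-1β in TruSeq, 2498 to 3016 and 2095 to 3103 CPM in V4 and 1534 to 2452 and 1856 to 2099.8 CPM in Pico. Its log2 fold change was 0.099 (95% interval -0.20 to 0.40, adjusted p = 0.591) in TruSeq, 0.08 (95% interval -0.17 to 0.33, adjusted p = 0.692) in Pico and -0.02 (95% interval -0.35 to 0.31, adjusted p = 0.953) in V4. For Cbs the ranges were 333 to 373 and 309.9 to 394 CPM in TruSeq, 369 to 484 and 308 to 408 CPM in V4 and 254 to 308 and 226 to 313 CPM in Pico. The Cbs change was 0.0061 (95% interval -0.23 to 0.25, adjusted p = 0.968) in TruSeq, -0.11 (95% interval -0.38 to 0.16, adjusted p = 0.639) in Pico and -0.16 (95% interval -0.51 to 0.20, adjusted p = 0.608) in V4. All 6 intervals held 0, and the bound farthest from it was -0.51, for Cbs in V4.

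All 9 genes were abundant in these livers. Ranked by mean CPM per kb of exonic length over the saline mice of TruSeq, they stood between place 53 (Mat1a) and place 876 (Hal) of 19424 genes. In the saline mice of TruSeq, Mat1a led with a mean of 1145 CPM per kb (953 to 1393). It was followed by Hpd at 863, Tat at 821 and Gnmt at 810 CPM per kb, whose ranges overlapped. The ranges of Tat (up to 1067) and Gnmt (up to 973) also reached into that of Mat1a. Tdo2 came next at 474 CPM per kb, apart from its neighbours, then Bhmt at 107 and Cbs at 104, which overlapped, and last Sds at 69.7 and Hal at 56.9, which also overlapped. After IL-1β, Tat led at 1947 CPM per kb (1914 to 1971), apart from Mat1a at 1213, while Sds at 209 had passed Cbs at 105 and Bhmt at 79.5, with none of these neighbouring ranges overlapping. Tat made up 14.4% to 20.8% of the counts of the 9 genes in the saline mice of TruSeq and 32.8% to 37.5% in the IL-1β mice, against 24.4% to 34.1% and 48.3% to 49.9% in Pico and 13.1% to 18.8% and 28.1% to 30.1% in V4. The 9 genes together took 1.03% to 1.24% of all counts in saline and 1.26% to 1.40% after IL-1β in TruSeq. In Pico they took 0.742% to 0.935% and 1.01% to 1.10%, while in V4 the ranges overlapped (1.27% to 1.58% and 1.27% to 1.52%). These sums include Tat, whose share of them rose as given above, so they do not mean that all 9 genes rose.

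The kits gave different levels of the same genes in the same mice. The tables were normalized separately, so these ratios of CPM are descriptions. Gnmt in V4 was above its TruSeq level by a mean log2 ratio of 1.65 ± 0.15 (SD, n = 6 mice) and Sds by 1.77 ± 0.28, while the median of 8878 genes was -0.45, and 97.2% and 98.0% of those genes had a lower ratio. The other 7 genes had mean log2 ratios of -0.48 (Mat1a) to 0.32 (Hpd) between V4 and TruSeq. Between Pico and TruSeq the ratio was lowest for Mat1a, at -0.94 ± 0.044, and for Gnmt, at -0.73 ± 0.11, and above 0 only for Tat, at 0.24 ± 0.093, against a median of 0.0053 over 8946 genes. Gnmt and Sds have the highest exonic GC content of the 9 genes (58.46% and 57.04%) and the shortest exons in sum (1206 and 1613 bases). Sds also shares 360 exonic bases with Plbd2 on the opposite strand, and V4 reads carry no strand. The part of each of these in the ratios was not tested. The order of levels therefore changed with the kit: in saline, per kb, Gnmt led in V4 at 2699 CPM per kb and Tat in Pico at 1018.

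**Figure D3:**
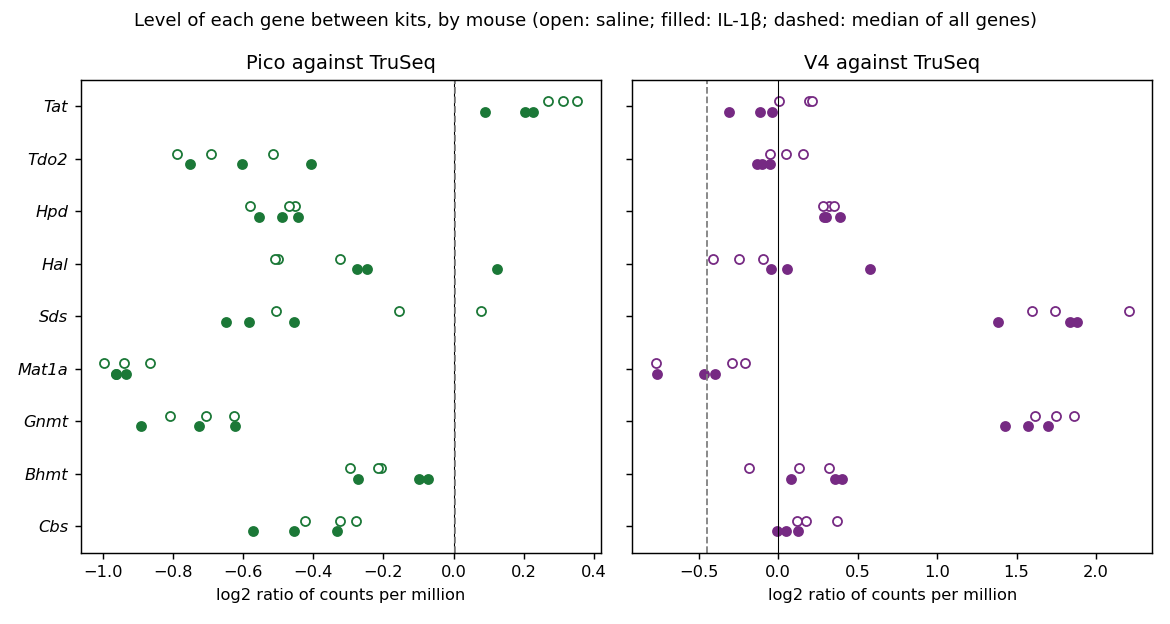
Log2 ratio of the CPM of each gene (y axis) in Pico (left) and V4 (right) to its CPM in TruSeq, with 1 point per mouse, open for saline and filled for IL-1β, and a dashed line at the median of all genes. Gnmt and Sds lie far to the right in V4, between 1.38 and 2.21 in all 6 mice.

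Whether the response itself differed between kits was tested as a kit by treatment interaction, over the 12 libraries of each pair of kits. None of the 9 genes was called in any of the 3 pairs, the smallest adjusted p being 0.818 (Hal, V4 minus TruSeq), and over all genes limma-voom called 0%, with 945 genes (5.49%) at an unadjusted p under 0.05 in Pico minus TruSeq, 1090 (6.36%) in V4 minus TruSeq and 900 (5.49%) in Pico minus V4. By edgeR 0 genes were called in each pair, and by DESeq2 4, 62 and 14 in these pairs, with none of the 9 among them. Intervals were wide for the genes that moved most. Hal in Pico minus TruSeq differed by 0.31 (-0.16 to 0.78) on the log2 scale, given with its 95% interval, and in V4 minus TruSeq by 0.44 (-0.024 to 0.91). The difference of Sds was -0.37 (-1.12 to 0.38) in Pico minus TruSeq and -0.15 (-1.05 to 0.76) in V4 minus TruSeq, and that of Tat -0.14 (-0.58 to 0.30) and -0.29 (-0.85 to 0.26). Hpd had the differences nearest to 0, with 0.0045 (-0.37 to 0.38) in Pico minus TruSeq.

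The libraries of 1 mouse share its RNA, so the mouse was added as a replicate block in a second fit, where intervals were narrower. With the block the difference of Tat was -0.30 (95% interval -0.49 to -0.10, unadjusted p = 0.00726, adjusted p = 0.496) in V4 minus TruSeq and -0.14 (95% interval -0.24 to -0.037, unadjusted p = 0.0118, adjusted p = 0.633) in Pico minus TruSeq. That of Hal was 0.44 (95% interval 0.07 to 0.82, unadjusted p = 0.0249, adjusted p = 0.601) and 0.34 (95% interval 0.063 to 0.61, unadjusted p = 0.0206, adjusted p = 0.659), in the same order. Sds in Pico minus TruSeq had -0.38 (95% interval -0.69 to -0.077, unadjusted p = 0.0187, adjusted p = 0.659). None of these passed the adjustment over all genes. The blocked fit called 1 gene in all for Pico minus TruSeq, not 1 of the 9, and none in the other pairs, with 1278, 1263 and 1021 genes at an unadjusted p under 0.05 in Pico minus TruSeq, V4 minus TruSeq and Pico minus V4.

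**Figure D4:**
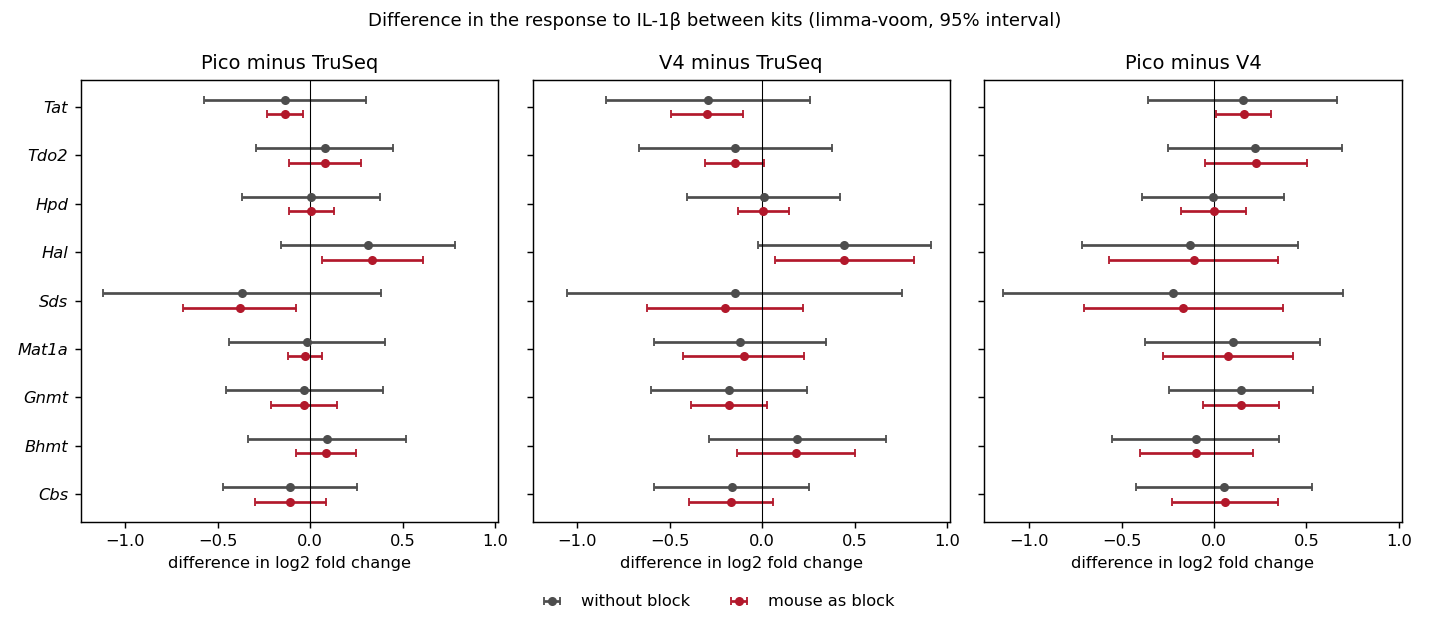
Difference between kits in the log2 fold change of IL-1β against saline (x axis) with its 95% interval, for each gene (y axis), without a block (grey) and with the mouse as block (red). Intervals with the block are narrower, and those of Tat in all 3 pairs, Hal in both pairs with TruSeq and Sds in Pico minus TruSeq leave out 0 before adjustment over all genes.

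Among the other genes of amino acid metabolism, more were called lower than higher in each kit. Of a list of 92, 91 were tested in Pico, with 9 called higher and 46 lower, and 92 in V4 and TruSeq, with 4 and 30 and with 12 and 62. Over all genes tested, 12.3% were called higher and 21.8% lower in TruSeq, 6.78% and 10.8% in Pico and 3.6% and 7.41% in V4, and the counts by pathway are to be read against these shares. Among the 12 is Tdh, a threonine dehydrogenase gene listed at 0 counts in all saline mice and at 2, 1 and 3 counts in the IL-1β mice of TruSeq, which leaves 11 without it. Without Tdh the list had a median log2 fold change of -0.50 in TruSeq, -0.44 in Pico and -0.48 in V4, below the medians of all genes given above. With TMM factors these became -0.34, -0.31 and -0.31, and 50, 35 and 16 genes were called lower and 11, 10 and 5 higher. By pathway, TMM factors took the lower calls of V4 from 8 to 4 for aromatic amino acid breakdown and from 2 to 1 for histidine breakdown. V4 also went from 4 to 2 for serine, glycine and threonine metabolism and from 3 to 2 for methionine, homocysteine and cysteine metabolism. Methyl group users went from 2 to 1 there and branched-chain breakdown from 3 to 1. Lysine breakdown went from 2 to 0 and transporters from 2 to 1. In Pico, aromatic breakdown went from 7 to 6, methyl group users from 5 to 3 and branched-chain breakdown from 6 to 4. Transaminases, glutamate and proline went from 8 to 5 there, lysine breakdown from 4 to 2 and transporters from 3 to 2. In TruSeq, aromatic breakdown went from 11 to 8 and methionine, homocysteine and cysteine metabolism from 8 to 7. Methyl group users went from 6 to 5 there and branched-chain breakdown from 15 to 11. Transaminases, glutamate and proline went from 8 to 6 and transporters from 2 to 1. Pathways not named for a kit kept their number of lower calls.

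**Figure D5:**
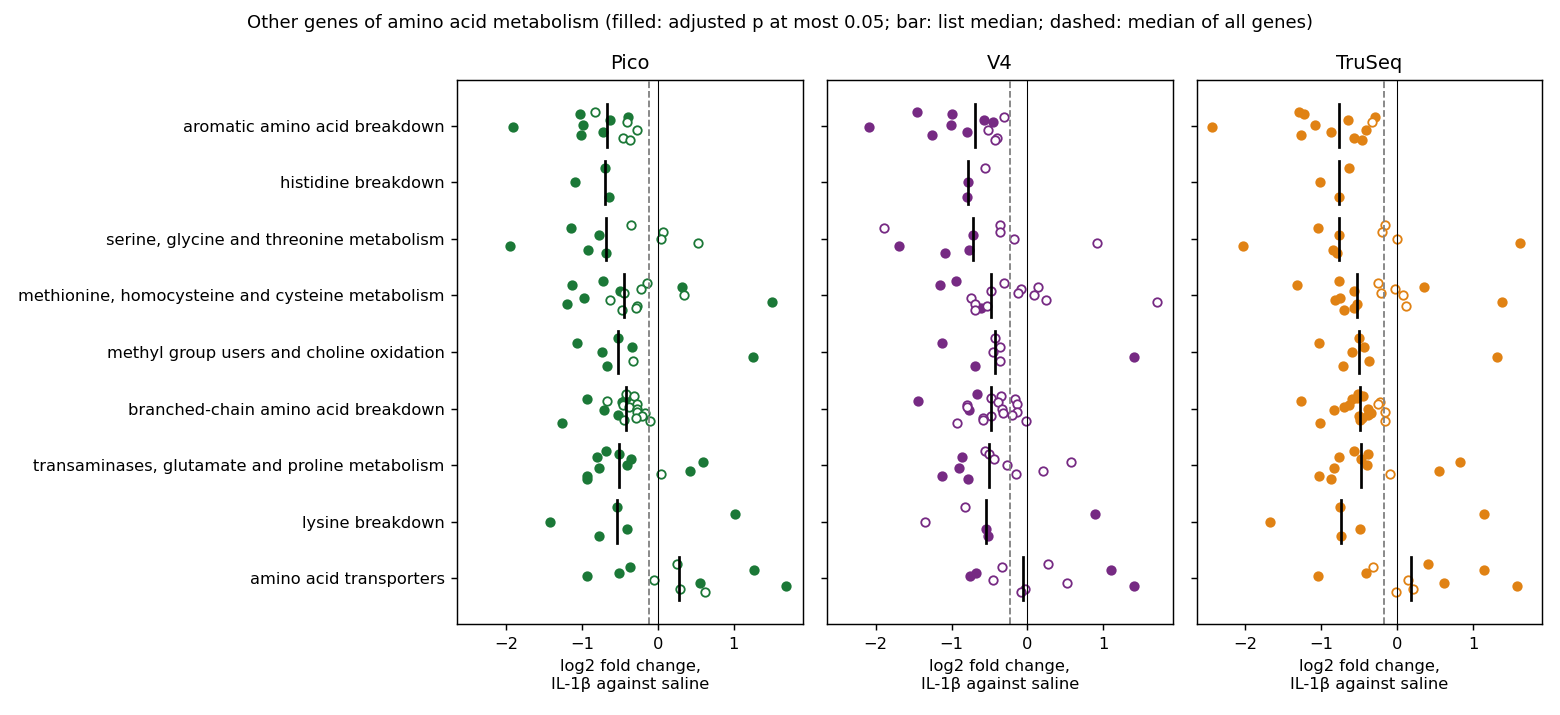
Log2 fold change of IL-1β against saline (x axis) for the other genes of amino acid metabolism, grouped by pathway (y axis), in Pico, V4 and TruSeq, with filled points for an adjusted p of at most 0.05, a black bar at the median of each pathway, a solid line at 0 and a dashed line at the median of all genes. Tdh is left out, and in each kit the medians of all pathways but the transporters lie to the left of the dashed line.

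Around Tat, Hpd and Tdo2, none of 12 further genes of aromatic amino acid breakdown was called higher in any kit, while 11 were called lower in TruSeq, 7 in Pico and 8 in V4. Ido2, another tryptophan-cleaving dioxygenase, went from 120.0 ± 2.06 to 22.3 ± 2.63 CPM in TruSeq (mean ± SD, n = 3), with log2 fold changes of -2.43 (TruSeq), -1.91 (Pico) and -2.09 (V4), called in each. Acmsd, which steers kynurenine carbon away from NAD synthesis, went from 22.8 ± 1.6 to 9.58 ± 2.82 CPM in TruSeq, with -1.29 (TruSeq), -0.82 (Pico) and -1.46 (V4), and was not called in Pico. The 3 other histidine genes were called lower in Pico and TruSeq and 2 of them in V4. Ftcd, at the end of the histidine pathway, fell with -1.02 (TruSeq), -1.09 (Pico) and -0.79 (V4), and Uroc1, which acts right after Hal, with -0.77 (TruSeq), -0.64 (Pico) and -0.80 (V4). Among 10 genes of serine, glycine and threonine metabolism the Sds paralog Sdsl was at log2 fold changes of 1.62 (TruSeq), 0.53 (Pico) and 0.91 (V4) and was called higher in TruSeq, and in V4 only with TMM factors (adjusted p = 0.0306). Shmt1, the cytosolic serine hydroxymethyltransferase, fell from 235 ± 36.5 to 57.1 ± 1.98 CPM in TruSeq, with -2.03 (TruSeq), -1.95 (Pico) and -1.69 (V4). Amt, of the glycine cleavage system, had -1.04 (TruSeq), -1.14 (Pico) and -1.88 (V4) and was called in Pico and TruSeq.

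Among 15 genes of methionine, homocysteine and cysteine metabolism, 8 were called lower in TruSeq, 5 in Pico and 3 in V4, and 2, 2 and 0 higher. Bhmt2, the paralog of Bhmt, fell from 179 ± 11.5 to 72.9 ± 14.8 CPM in TruSeq, with log2 fold changes of -1.32 (TruSeq), -1.13 (Pico) and -1.15 (V4), called in each kit and further from 0 than those of Bhmt. Reads that fit both paralogs could be split between them by the counting. Mpst, a mercaptopyruvate sulfurtransferase, was called lower in TruSeq (-0.82) and not in Pico (-0.63) or V4 (0.25). Cdo1, the cysteine dioxygenase, was called higher in Pico (0.32) and TruSeq (0.35). Of 7 genes that spend methyl groups or oxidise choline, Nnmt, which methylates nicotinamide, was the only gene called higher, in each kit, with 1.31 (TruSeq), 1.25 (Pico) and 1.41 (V4). Chdh, which starts the oxidation of choline to the betaine used by Bhmt, fell with -1.02 (TruSeq), -1.07 (Pico) and -1.13 (V4). Sardh, which oxidises the sarcosine made by Gnmt, fell with -0.71 (TruSeq), -0.66 (Pico) and -0.69 (V4). Both were called in each kit.

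Of 19 branched-chain genes 15 were called lower in TruSeq, 6 in Pico and 3 in V4, and none higher. Bcat2, a branched-chain aminotransferase, had -1.27 (TruSeq), -0.67 (Pico) and -1.44 (V4) and was not called in Pico, and Ppm1k, the phosphatase that activates the branched-chain dehydrogenase, had -1.01 (TruSeq), -1.26 (Pico) and -0.93 (V4) and was not called in V4. Among 11 genes of transamination, glutamate and proline, 8, 4 and 8 were called lower in Pico, V4 and TruSeq. Prodh and Prodh2, which oxidise proline and hydroxyproline, fell in each kit, with -1.03 (TruSeq), -0.94 (Pico) and -1.12 (V4) and with -0.87 (TruSeq), -0.93 (Pico) and -0.79 (V4). The aminotransferases Got1 (0.83 (TruSeq), 0.59 (Pico) and 0.57 (V4)) and Gpt2 (0.56 (TruSeq), 0.42 (Pico) and 0.21 (V4)) were the 2 called higher, in Pico and TruSeq and not in V4. In lysine breakdown Aass, the first enzyme of the saccharopine route, was called higher in each kit, from 341 ± 39.8 to 754 ± 109 CPM in TruSeq, with 1.14 (TruSeq), 1.02 (Pico) and 0.89 (V4), and the other 4 genes were called lower in Pico and TruSeq and 2 of them in V4. Dhtkd1, a subunit of the oxoadipate dehydrogenase, had -1.68 (TruSeq), -1.42 (Pico) and -1.35 (V4) and Aadat, the aminoadipate aminotransferase, -0.75 (TruSeq), -0.53 (Pico) and -0.83 (V4), neither of them called in V4.

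The 10 amino acid transporters had 4 called higher and 2 lower in TruSeq, 3 and 3 in Pico and 2 and 2 in V4. Over all genes these shares were 12.3% and 21.8% in TruSeq, 6.78% and 10.8% in Pico and 3.6% and 7.41% in V4. Only the share called lower in TruSeq was close to that of all genes. Slc38a2, a sodium-coupled carrier of small neutral amino acids, and Slc43a1, a carrier of large neutral ones, were called higher in each kit, with 1.15 (TruSeq), 1.26 (Pico) and 1.11 (V4) and with 1.58 (TruSeq), 1.69 (Pico) and 1.41 (V4). Slc38a4, another sodium-coupled carrier, fell from 1338 ± 144 to 649.7 ± 66.7 CPM in TruSeq, with -1.04 (TruSeq), -0.93 (Pico) and -0.75 (V4). Slc38a3, the glutamine carrier of the same family, had -0.41 (TruSeq), -0.51 (Pico) and -0.68 (V4) and was called in each kit, but with TMM factors not in V4 (adjusted p = 0.0899) or TruSeq (adjusted p = 0.0533). The transporter median was 0.18 in TruSeq, 0.27 in Pico and -0.054 in V4, which turned to 0.11 with TMM factors.

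Markers of other cells moved as well. The 5 acute-phase genes checked were called higher in each kit. Hepatocyte markers (5 genes) summed to between 87660 and 104557 CPM in the saline mice of TruSeq and between 62441 and 70037 CPM in the IL-1β mice. The same sums were 54155 to 65291 CPM against 41025 to 47109 CPM in Pico, and 50461 to 65413 CPM against 39735 to 46531 CPM in V4. Alb, the albumin gene, made up most of the sum in TruSeq, with a saline mean of 76517 CPM. Of the 5 genes, 2 were called lower and 1 higher in TruSeq, 4 and 0 in Pico and 2 and 0 in V4, the higher one being the transferrin gene Trf, at a log2 fold change of 0.30 in TruSeq (and 0.061 in Pico and 0.44 in V4, not called). Summed neutrophil markers, of which 6 of 7 were listed in TruSeq, 4 in Pico and 5 in V4 and 4 were called higher in each, went from at most 4.83 CPM in any saline library to between 27.5 and 79.0 CPM, while Mpo, a neutrophil granule gene on the list, appeared in no table. In TruSeq, Kupffer cell markers summed to 111 to 186 CPM in saline and 55.8 to 83.2 CPM after IL-1β, with 4 of 7 called lower and 1 higher, and sinusoidal endothelial markers to 179 to 199 CPM and 105 to 139 CPM, with 4 of 6 called lower and 1 higher. Of 5 stellate cell markers 2 were called lower there, 1 in Pico and 1 in V4. Of 4 cholangiocyte markers 2 were called higher in TruSeq, 1 in Pico and 0 in V4. Of 4 lymphocyte markers 2 were called lower in TruSeq and 0 in Pico and V4. Their sums were low, at 1.88 to 3.08 CPM in saline and 0.567 to 1.05 CPM after IL-1β in TruSeq. Over all genes the TruSeq fit called 12.3% higher and 21.8% lower. Periportal markers (6 genes) and pericentral markers (8 genes) of hepatocytes had 5 called lower each in TruSeq and none higher. The part of these shifts in the responses of the 9 genes was not tested.

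Within the treatments, some mice stood at the same end of their group in every kit and others did not. Sds was lowest in saline mouse UNT_9574, Tat highest in saline mouse UNT_9575 and Gnmt highest in saline mouse UNT_9576 in all 3 kits. Hal in IL-1β mouse ILB_9582 was the lowest of its group in Pico and TruSeq and the highest in V4, and Bhmt in saline mouse UNT_9576 was the highest in Pico and TruSeq and the lowest in V4. Among the 9 genes the closest pair over the 18 libraries, by Pearson correlation of log2 CPM centred within each kit, was Hpd and Gnmt (0.94), followed by Tat and Sds (0.89), and the most opposed was Tat and Hal (-0.85). The genes compared were the 8960 whose mean was 20 counts or more in every kit. Most like Tat was Dnajb9 (0.99), the most like Sds Hamp (0.97), the most like Hal Hao1 (0.98), the most like Hpd Sult1d1 (0.98) and the most like Gnmt Asl (0.96). For Tdo2 it was Cpt1a (0.89), for Mat1a Sult1a1 (0.86) and for Cbs Gstm4 (0.79). These correlations are descriptions: the 18 libraries come from 6 mice sequenced 3 times, and a treatment difference raises them for every gene that responds.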

How the data were processed

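RNA-Seq of liver from 3 IL-1β and 3 saline mice, each with 3 kits, was used, and groups came from the sample labels. The authors aligned reads to mm9 with GSNAP, took out ribosomal reads, drew equal numbers of reads for the libraries of a kit and deposited whole counts per gene. Pico and TruSeq counts are of sense reads, and V4 counts are of reads from either strand. The equal draw sets the depth given above, and the 3 tables were normalized apart from each other. Taking them as uniquely mapped reads is an assumption, and reads that paralogs share may be missing or split.

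Each kit was fitted with limma-voom (limma 3.58.1, R 4.3.3), as the study's methods state, with library totals, over genes with at least 1 count, and Benjamini-Hochberg adjustment over all of them. Differences between kits were fitted as a kit by treatment interaction over 12 libraries. Alternatives were TMM factors, edgeR 4.0.16, DESeq2 1.42.0, a minimum of 10 counts in 3 libraries, no filter, thresholds of 0.01 and 0.1, thinning to 4024632 counts, leaving out each mouse, and a block for the mouse. The limma-voom, edgeR and DESeq2 fits of a kit and the limma-voom interaction, with and without the block, were tested on simulated data. The 200 genes changed there were drawn from those with a saline mean of at least 20 counts. Changed by a log2 of 1, limma-voom recovered 73% of them in TruSeq, 50% in Pico and 4% in V4. At a log2 of 0.5 it recovered 0% in each kit. Far more genes were called in the real data, so these shares may not carry over to it. A gene that was not called is still not shown to be unchanged. Tables and plots were made with Python 3.11.15, numpy 2.4.6, pandas 2.3.3 and matplotlib 3.10.9.

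RNA of each mouse was split among the kits, so its number pairs the libraries. Deviations from group means over 8960 genes correlated, for libraries of the same mouse, by 0.168 to 0.458 (V4 with TruSeq), 0.194 to 0.446 (Pico with TruSeq) and 0.0796 to 0.234 (Pico with V4), and for different mice by -0.36 to -0.0327. The deviations of a group sum to 0, so values for different mice must fall as those for the same mouse rise. Named beside the 9 genes were, per list, up to 2 genes with the largest rise and 2 with the largest fall among those called in TruSeq, and per gene its most correlated gene. Of the genes this rule names, 2 are not reported here. Members and lists were chosen with earlier results of these data known. Gene coordinates are those of GENCODE vM1, since the deposited tables pad them by 250 bases (TruSeq), 294 (Pico) and 298 (V4), with 1 exception in each.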

Additional observations from a re-analysis of the deposited data

How the results depend on the processing

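With TMM factors, edgeR and DESeq2, in this order, genes that were not called turned sign: Tdo2 to 0.076, 0.082 and 0.076 and Cbs to 0.025, 0.038 and 0.032 in Pico, Mat1a to 0.15, 0.17 and 0.17 and Cbs to 0.0093, 0.00099 and 0.0079 in V4, and Tdo2 to 0.025, 0.027 and 0.027 in TruSeq. So did differences between kits: Hpd in Pico minus TruSeq (-0.048, -0.051 and -0.012), Hpd in V4 minus TruSeq (-0.012 and -0.0099 with TMM factors and edgeR), Cbs in Pico minus V4 (-0.0301, -0.013 and -0.0062) and Mat1a there (-0.029 and -0.022 by edgeR and DESeq2). Members called lower went to 2 in Pico and 1 in V4 under each of these and at an adjusted p of at most 0.01. Bhmt lost its call in TruSeq too, at an adjusted p of 0.154 (TMM factors), 0.192 (edgeR) and 0.180 (DESeq2). Its limma-voom adjusted p of 0.0402 with library totals did not pass 0.01. The other genes of amino acid metabolism called lower in V4 went to 16 with TMM factors and 12 at 0.01, and those called higher to 7 by edgeR and by DESeq2 and 2 at 0.01. Over all genes, calls at 0.01 were 4081 (TruSeq), 1884 (Pico) and 764 (V4), against 6614, 3179 and 1986, and V4 had 2982 at 0.1. With TMM factors Uroc1, Sardh and Acmsd were not called in V4, nor Aadat in Pico. Thinned to equal depth, Bhmt was not called in TruSeq (-0.43, adjusted p = 0.0694). Leaving out every filter gave the values reported, because every listed gene held at least 1 count and both fits had the same input.

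For the interactions, the replicate block gave 1 call in Pico minus TruSeq and changed no other, and DESeq2 called 4, 62 and 14 genes in the pairs as ordered above. Without 1 mouse, calls over all genes ranged from 5114 to 5606 (TruSeq), 1765 to 2603 (Pico, at most 2034 without an IL-1β mouse) and 908 to 2093 (V4, at most 1196 without any but UNT_9576). Members called lower ranged from 2 to 3 in Pico and 1 to 3 in V4 and in TruSeq, and those higher stayed at 2. Of the wider list, in the same order, 9 to 11, 4 to 7 and 2 to 4 genes were called higher and 55 to 60, 31 to 41 and 12 to 40 lower. Interaction calls ranged from 0 to 59 genes in V4 minus TruSeq and 0 to 39 in Pico minus V4, both highest without mouse UNT_9576, and none of the 9 genes was called. Uncalled changes turned sign within -0.074 to 0.26 (Mat1a, Pico), -0.13 to 0.15 (Mat1a, V4), -0.023 to 0.25 (Mat1a, TruSeq), -0.25 to 0.0012 (Tdo2, TruSeq) and -0.079 to 0.093 (Cbs, TruSeq). Uncalled differences did so within -0.012 to 0.16 (Tdo2), -0.036 to 0.034 (Hpd), -0.0499 to 0.015 (Mat1a) and -0.095 to 0.039 (Gnmt) in Pico minus TruSeq, within -0.27 to 0.032 (Sds) and -0.022 to 0.027 (Hpd) in V4 minus TruSeq, and within -0.041 to 0.024 (Hpd), -0.33 to 0.13 (Hal), -0.018 to 0.31 (Mat1a), -0.199 to 0.048 (Bhmt) and -0.0094 to 0.15 (Cbs) in Pico minus V4. The cause of these changes was not tested. What depth limits was tried only by the thinning above.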
